A study of Mus musculus with 6 samples.

Results

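The regions described are the intergenic H3K27ac peaks that lie close to, but not at, a gene start in mouse embryonic stem cells (mESCs). They were selected on their position in the deposited list of control peaks: autosomal peaks under 10000 bp that overlap no protein-coding or lincRNA gene and whose nearest edge lies over 1 kb and up to 10 kb from the nearest transcription start site (TSS) of such a gene, with the TSS of any transcript counted. There were 1377 of them among 20922 autosomal peaks under 10000 bp (6.58%) and 22973 peaks in all, and they are called TSS-near intergenic peaks below. H3K27ac was measured by ChIP-seq (chromatin immunoprecipitation and sequencing) in the mESC line E14Tg2A (E14), grown in N2B27 medium with LIF and 2 kinase inhibitors. Control cells were given the solvent DMSO, and the treated cells received NVP-2, a CDK9 inhibitor, at 100 nM or actinomycin D (ActD), a DNA-binding inhibitor of transcription, at 800 nM, each for 120 min. Each condition had 2 replicates of this 1 line, and chromatin of the human HEK293T line was added to every sample as a spike-in. The only list used pools both control replicates, so the values below have no replicate error, and the treated libraries were not analysed here.

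H3K27ac is placed on histone H3 mainly by the acetyltransferases CBP and p300 and marks active promoters and active enhancers. An enhancer is a stretch of DNA that binds transcription factors and raises the transcription of a gene from a distance, and many enhancers lie outside genes. In mESCs such elements are bound by the pluripotency factors OCT4, SOX2, NANOG, KLF4 and ESRRB and receive signals of the LIF, Wnt, Nodal and BMP pathways. An acetylated region near a TSS may be an enhancer, the edge of a promoter domain or an unannotated promoter, and a list of positions does not separate these.

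Stretches of 60 bases from TSS-near intergenic peaks next to regulators of the ESC state are shown first, since they join the sequence and the gene side of the description. They were chosen after the values were seen, as the matches to 4 searched elements (the octamer, KLF, ESRRB and STAT letters) in the central 1 kb of peaks whose nearest gene is in a list of regulators, early lineage or tissue-restricted genes. The peak near Apc, which also holds KLF letters, was not searched for printing. Of the 14 matches in the other peaks 7 are shown, those of Spred2, Eomes and Tnnt2 and another of Utf1 being left out. The ESRRB and STAT letters gave no match. The capitals mark the match, GGGNGTGG for KLF factors or ATGCAAAT for the octamer bound by OCT4, and each line is read 5′ to 3′ on the strand named, from the GRCm38 (mm10) genome.
Gdf3, KLF, chr6:122617997-122618056, plus strand: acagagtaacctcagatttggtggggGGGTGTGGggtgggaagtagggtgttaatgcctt
Dppa3, KLF, chr6:122633192-122633251, plus strand: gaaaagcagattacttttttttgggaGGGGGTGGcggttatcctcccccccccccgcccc
Utf1, KLF, chr7:139950368-139950427, minus strand: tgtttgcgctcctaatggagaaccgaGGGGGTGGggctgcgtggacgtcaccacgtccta
Tcf7l1, KLF, chr6:72795413-72795472, plus strand: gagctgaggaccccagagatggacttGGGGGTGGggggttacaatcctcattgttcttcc
Axin2, KLF, chr11:108911147-108911206, plus strand: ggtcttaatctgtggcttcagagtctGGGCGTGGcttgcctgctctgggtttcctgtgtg
Bmp4, KLF, chr14:46398614-46398673, minus strand: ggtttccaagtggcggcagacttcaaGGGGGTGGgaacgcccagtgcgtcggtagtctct
Lefty1, octamer, chr1:180933983-180934042, plus strand: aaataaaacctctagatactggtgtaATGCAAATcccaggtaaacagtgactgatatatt
The KLF matches shown lie inside their peaks. The octamer near Lefty1 lies outside the peak, which is narrower than the window searched. A match to letters is a description of the sequence and does not show that a factor was bound.

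The width of TSS-near intergenic peaks was close to that of intergenic peaks farther out. Their median width was 1887 bp (95% interval 1833 to 1938), with quartiles of 1216 and 3380 bp. The medians were 1964.5 bp (1923 to 1991) for the 2578 intergenic peaks over 10 and up to 50 kb from a TSS and 2007 bp (1951 to 2119) for the 1323 farther than 50 kb, and the 79 intergenic peaks up to 1 kb from a TSS had one of 1020 bp (624 to 1682). In all, 257 of the 1377 (18.7%) were narrower than 1 kb, against 17.5% and 14.2% in the farther classes. The difference from the class beyond 50 kb was 4.45 percentage points (95% Newcombe interval 1.66 to 7.24), whereas that from the class at 10 to 50 kb was 1.13 points (-1.35 to 3.70). Intervals cover counting error only, and neighbouring peaks are not independent. The list gives no height, count or depth, so narrow peaks cannot be told from weak ones.

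The limits cut through a continuous range of distances. The closest peaks included lay 1027 bp upstream of Fth1, the gene of the ferritin heavy chain, and 1043 bp upstream of Efna5, a membrane-bound ephrin. Peaks 985 bp upstream of Cxcr5, a chemokine receptor, and 985 bp upstream of the lincRNA gene Gm13656 fell just outside. At the other end, a peak 9969 bp downstream of the Tkt TSS and one 9986 bp upstream of Scgn were included, and peaks at 10005 bp (Htr5a) and 10006 bp (Gm10655) were not. Another 68 autosomal peaks met every condition but width. The narrowest of these, near Tipin, spanned 10047 bp, and one of 10318 bp lay 9909 bp from the TSS of Sox2.

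Most TSS-near intergenic peaks lay upstream of the gene, but so does most of the sequence in which they could lie. Upstream were 981 of 1377 (71.2%, 95% Wilson interval 68.8 to 73.6), against 58.7% at 10 to 50 kb and 51.8% beyond 50 kb. Intergenic bases at the same distance from a TSS came to 185.4 Mb, of which 75.3% lay upstream, because the gene body usually takes up the downstream side. Per Mb of that sequence there were 7.03 peaks upstream and 8.65 downstream. A downstream peak lies past the 3′ end of a short gene or of a gene with a TSS close to that end. Upstream density was lowest next to the limit, with 4.10 peaks per Mb at 1 to 2 kb, and highest at 5 to 6 kb with 8.83 per Mb, and it was 6.95 per Mb at 9 to 10 kb. Downstream it stayed between 6.89 and 9.65 per Mb in all bins. Over both sides the density was 7.43 per Mb, compared with 6.24 at 10 to 50 kb and 1.95 beyond 50 kb. The low density next to the limit was seen only where the nearest TSS had a peak within 1 kb. Over both sides it was there 0.53 per Mb at 1 to 2 kb and 16.1 at 5 to 6 kb. Where that TSS had no peak, density was 6.67 and 5.00 per Mb. The authors merged peaks within 2 kb of each other.

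**Figure D1:**
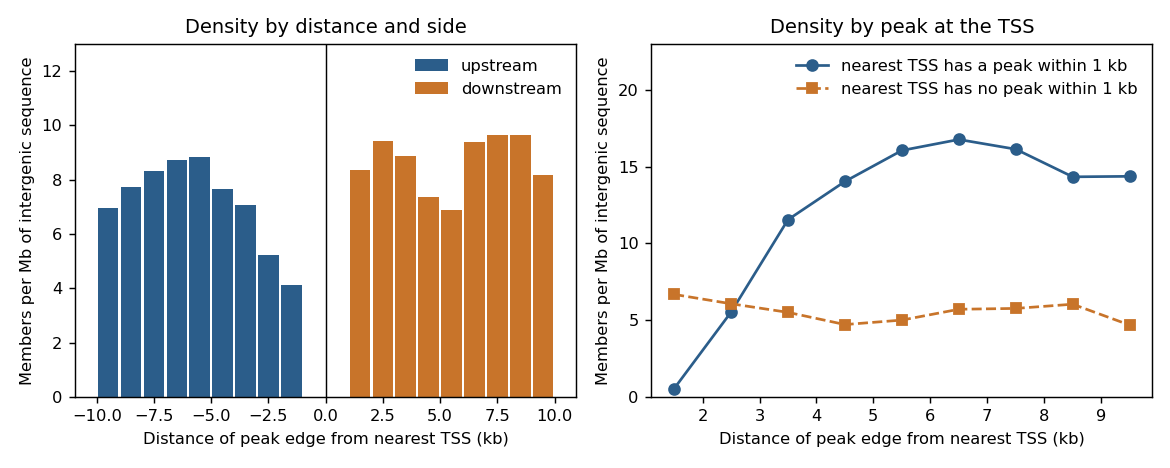
TSS-near intergenic peaks per Mb of intergenic sequence (y axes) against the distance of the peak edge from the nearest TSS in kb (x axes), in bins of 1 kb. Left, bars for the upstream side at negative distances and the downstream side at positive ones: upstream density falls toward the TSS, to 4.10 per Mb at 1 to 2 kb. Right, separate lines for sequence whose nearest TSS has or lacks a peak within 1 kb: from 3 kb outward the density is higher where the TSS has a peak. At 1 to 2 kb it is 0.53 per Mb there, against 6.67 where the TSS has none.

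About as many TSS-near intergenic peaks had a marked promoter next to them as had not. Marked means that the authors' filtered list holds a peak there, so an unmarked promoter may still carry H3K27ac that was filtered out. The nearest TSS carried another H3K27ac peak within 1 kb for 662 of 1377 (48.1%, 45.4 to 50.7). At 10 to 50 kb this share was 49.1%, a difference of -0.99 points (95% Newcombe interval -4.26 to 2.28). Beyond 50 kb it was 32.0%, a difference of 16.0 points (12.4 to 19.6). Of the intergenic bases in the same 3 distance classes, 30.7%, 24.1% and 14.3% had a marked TSS nearest to them, so the marked share of peaks was above that of sequence in every class, and the sequence of the nearest and the farthest class differed by about as much as the peaks did. Per Mb there were 11.6 peaks where the TSS was marked and 5.56 where it was not. With only the TSS of the longest isoform, the difference from the 10 to 50 kb class became -4.97 points (-8.37 to -1.57), with distances from the peak midpoint -4.37 points (-7.72 to -1.01), and with peaks over 2 kb from a TSS alone 2.26 points (-1.09 to 5.60).

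The marked share varied with distance, side and kind of gene, and by side and kind of gene so did that of the sequence. Of the 95 peaks at 1 to 2 kb only 4 (4.21%) had a marked TSS, and of the 127 at 2 to 3 kb 40 had one (31.5%). The authors merged peaks within 2 kb of each other, so a peak this close to a promoter peak would usually be part of it, and no TSS-near intergenic peak lay closer than 2002 bp to another peak. At 5 to 6 kb the share was 57.7% (101 of 175), and at 9 to 10 kb 54.0% (74 of 137). Upstream peaks had a marked TSS in 54.3% of cases and downstream peaks in 32.6%, a difference of 21.8 points (16.1 to 27.2), beside 35.6% of upstream and 15.8% of downstream intergenic sequence. Where the nearest gene was protein-coding 55.0% of TSSs were marked (581 of 1056), and where it was a lincRNA gene 25.2% (81 of 321), beside 36.2% and 13.1% of the sequence. The 662 peaks with a marked TSS and the 715 without had median GC contents of 47.6% and 48.4% and median widths of 1951 and 1821 bp. For the 715 whose nearest TSS had no peak, the nearest TSS with one lay at a median of 33333 bp (29580 to 37045), and for 441 of them (61.7%) within 50 kb. In 165 of these cases (23.1%) another TSS of the same gene had a peak.

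**Figure D2:**
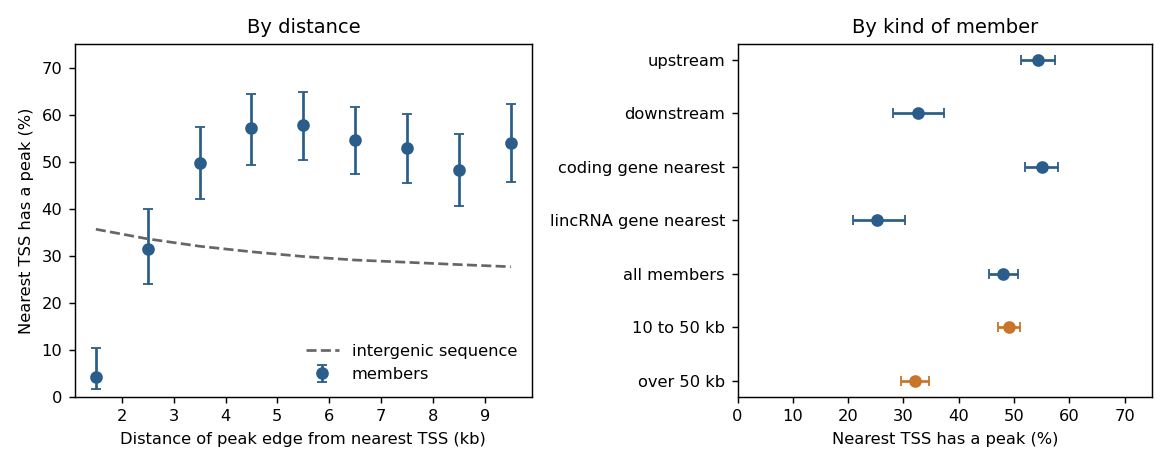
Percentage of peaks whose nearest TSS has another H3K27ac peak within 1 kb, with 95% Wilson intervals. Left, TSS-near intergenic peaks by distance from the TSS in bins of 1 kb (points) beside the same share of intergenic sequence (dashed line): the points start at 4.21% and lie above the line from 3 kb on. Right, subsets (blue) and the farther intergenic peaks (orange): upstream and coding-gene peaks lie above downstream and lincRNA peaks.

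The distance from TSS-near intergenic peaks to other peaks is partly set by the rule, since a peak at the nearest TSS lies near them by construction and cannot lie so near the farther classes. The gap to the next peak of any kind had a median of 6235 bp, against 12134 bp at 10 to 50 kb and 39031 bp beyond. Another peak lay within 5 kb of 40.1% of them, against 23.6% and 13.1%, but of the 715 whose nearest TSS had no peak only 129 had one so near. The median gap was 3919.5 bp where that TSS had a peak and 14430 bp where it had none.

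Naming each peak by the gene of its nearest TSS gives 1307 genes, which is 5.02% of the 26016 autosomal protein-coding and lincRNA genes. Of these, 1240 had 1 peak, 64 had 2 and 3 had 3. The nearest gene is a position and was not tested as a target. The lists of regulators gave 10 of 27 genes of Wnt, Nodal and BMP signalling (37.0%, 21.5 to 55.8), 6 of 35 pluripotency genes (17.1%, 8.10 to 32.7), 3 of 18 genes of FGF and ERK signalling (16.7%, 5.84 to 39.2) and 2 of 16 of LIF and STAT3 signalling (12.5%, 3.50 to 36.0). These are read beside the 5.02% of all genes as a description, since the lists were chosen with results of these data known and are short. The pluripotency share was 11.4%, beside 4.50% of all genes with distances from the peak midpoint, 4.10% with peaks of at least 1 kb and 3.69% with genes of every biotype. Genes of the formative state and early lineages had 1 of 21 (4.76%), tissue-restricted genes 1 of 27 (3.70%) and cytosolic ribosomal protein genes 6 of 96 (6.25%). Per Mb of intergenic sequence assigned to their genes, the density was 40.7 peaks for Wnt, Nodal and BMP, 18.3 for pluripotency, 16.6 for FGF and ERK and 11.5 for LIF and STAT3, beside 7.43 for all genes, 11.0 for the ribosomal list, 4.53 for the formative list and 4.18 for the tissue-restricted list. The lists are short, so each of these densities rests on 1 to 11 peaks. A peak lay within 1 kb of a TSS of 9 of 12 ESC marker genes and of 2 of 10 fibroblast marker genes. Fibroblasts can serve as feeder cells, but the paper describes gelatin-coated plates and names no feeder cells. The share of all genes with such a peak was not computed, so these counts have no background to be read against. The ESC genes with no listed peak within 1 kb of a TSS were Dppa3, Klf4 and Sall4.

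**Figure D3:**
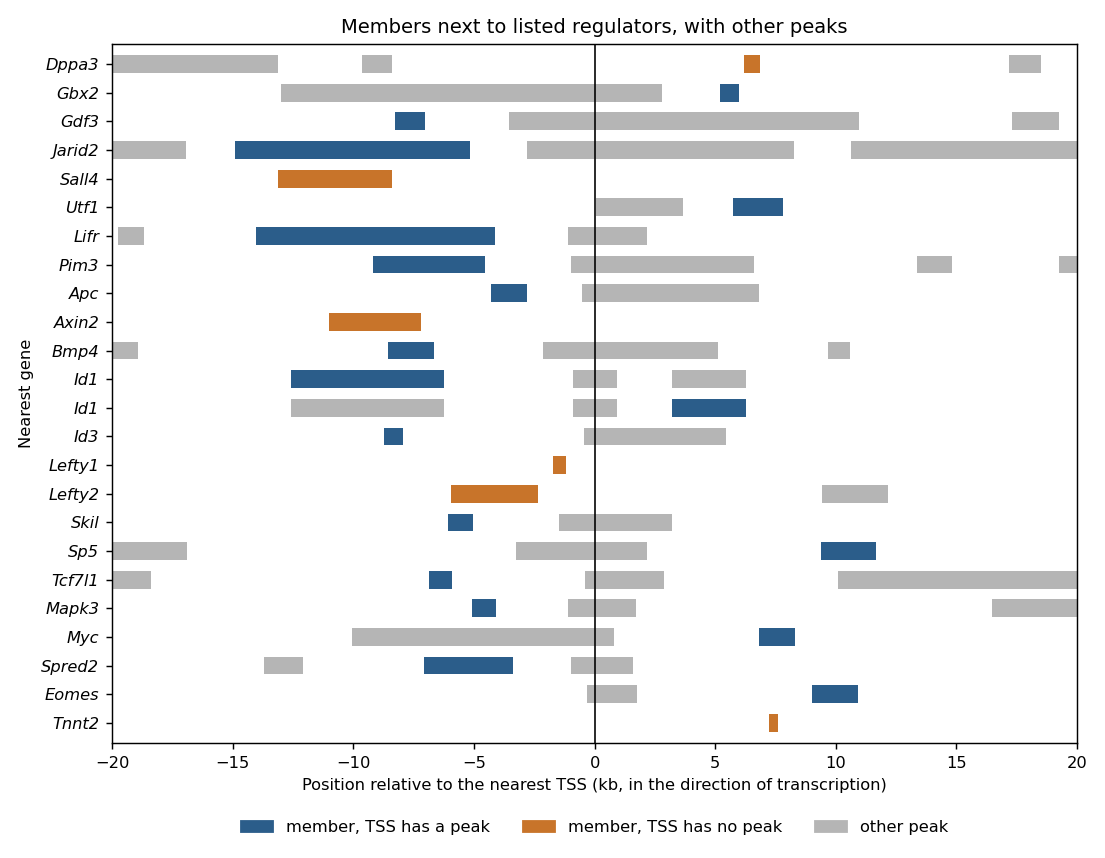
The 24 TSS-near intergenic peaks whose nearest gene is in a list of regulators, early lineage or tissue-restricted genes, drawn to scale along the x axis as the position relative to the nearest TSS in kb, with transcription running to the right, and 1 row for each peak. Coloured bars are the peaks themselves, blue where the TSS has another peak within 1 kb (18 peaks) and orange where it has none (6 peaks), and grey bars are all other peaks within 20 kb. Most blue bars flank a grey bar over the TSS, whereas Sall4, Axin2, Lefty1 and Tnnt2 show no other peak in the window.

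The Wnt pathway gave 4 of these genes. Axin2, a scaffold of the complex that degrades β-catenin and a Wnt target itself, had a peak of 3814 bp lying 7213 bp upstream (chr11:108909323-108913136), with no peak at the TSS. Tcf7l1, a TCF-family repressor of Wnt target genes in mESCs, had one of 972 bp at 5898 bp upstream, and Apc, another part of the destruction complex, one of 1494 bp at 2813 bp upstream. Sp5, a transcription factor gene induced by Wnt, had one of 2264 bp lying 9387 bp downstream of its TSS. The TSSs of Tcf7l1, Apc and Sp5 had peaks.

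The Nodal and BMP pathways gave the other 6. Lefty1 and Lefty2, secreted inhibitors of Nodal that lie next to each other on chromosome 1, each had a peak upstream, of 549 bp at 1179 bp (chr1:180933295-180933843) and of 3606 bp at 2332 bp (chr1:180887171-180890776), and in both cases the nearest TSS had none. These are the closest of the 24 peaks to their TSSs. Skil, a SMAD co-repressor, had a peak of 1039 bp at 5054 bp upstream of a marked TSS. Id1, a BMP-induced inhibitor of bHLH factors, was the only regulator with 2 peaks, 6347 bp wide at 6256 bp upstream (chr2:152723649-152729995) and 3043 bp wide at 3217 bp downstream (chr2:152739468-152742510), on either side of a marked TSS. Id3 had a peak of 790 bp at 7930 bp upstream with a GC content of 62.3%, the highest of the 24. Bmp4, the ligand, had one of 1891 bp at 6655 bp upstream.

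The LIF and FGF pathways together gave 5 peaks. Lifr, the LIF receptor chain, had one of 9909 bp starting 4128 bp upstream (chr15:7076578-7086486), the third widest of all 1377. Pim3, a kinase gene induced by STAT3, had one of 4641 bp at 4551 bp upstream. Spred2, an inhibitor of RAS and ERK signalling, had one of 3684 bp at 3380 bp upstream, Mapk3, which encodes ERK1, one of 1013 bp at 4088 bp upstream, and Myc one of 1493 bp at 6833 bp downstream. All 5 TSSs had peaks of their own.

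Pluripotency genes had peaks on both sides. Upstream lay those of Gdf3, a TGF-β family ligand (1246 bp at 7029 bp), of Jarid2, a partner of the Polycomb complex PRC2 (9743 bp at 5150 bp), and of Sall4, a zinc-finger factor (4730 bp at 8382 bp). Downstream lay those of Dppa3, a maternal factor that protects DNA methylation in the early embryo (667 bp at 6209 bp), of Gbx2, a homeobox factor (770 bp at 5215 bp), and of Utf1, a chromatin-bound ESC factor (2057 bp at 5736 bp). Sall4 (chr2:168776325-168781054) and Dppa3 (chr6:122632962-122633628) had no peak within 1 kb of the TSS, and the others had one. Outside the regulators, the lineage gene Eomes had a peak 8997 bp downstream of a marked TSS, and the cardiac troponin gene Tnnt2 one of 390 bp at 7230 bp downstream of an unmarked TSS. The 24 peaks ranged from 390 to 9909 bp in width with a median of 1914.5 bp, near that of all 1377.

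TSS-near intergenic peaks, like those farther out, were seldom rich in CpG. Their median GC content was 48.0% (47.7 to 48.3), with a range from 33.0% to 71.8%. It was 47.4% at 10 to 50 kb, a difference of 0.57 points with an approximate interval of 0.21 to 0.92 that became 0.26 points (-0.15 to 0.60) with protein-coding genes alone, and 44.8% beyond 50 kb, whereas all autosomal peaks under 10000 bp had 49.9%. The intergenic sequence of the same 3 distance classes contained 43.3%, 42.5% and 39.4% GC, pooled over all bases of the class, which lies below the median of its peaks in each. The ratio of observed to expected CpG had a median of 0.220, beside 0.223 and 0.178 in the farther classes and 0.311 in all peaks. It was above 0.6 in 50 peaks (3.63%), beside 2.60% and 2.12% in the farther classes and 24.1% of all peaks. The differences from the farther classes were 1.03 points (-0.07 to 2.28) and 1.51 points (0.25 to 2.81). Repeats, as soft-masked bases, made up a median of 25.2% of the sequence, against 24.5%, 28.1% and 16.5%.

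**Figure D4:**
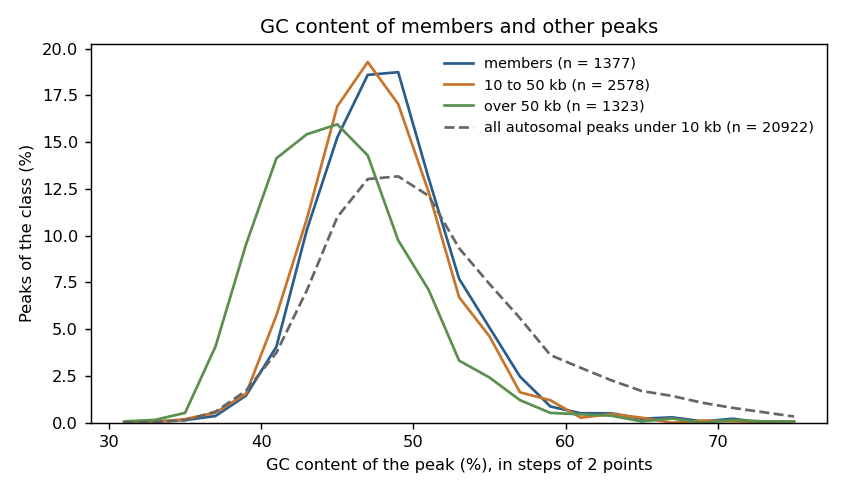
Percentage of peaks of each class (y axis) by the GC content of the whole peak (x axis, steps of 2 points), as lines for the TSS-near intergenic peaks (here "members"), the 2 farther intergenic classes and all autosomal peaks under 10 kb (dashed). The first 2 lines nearly coincide around 48%, the class beyond 50 kb is shifted to lower GC, and the long right shoulder of all peaks is missing from the intergenic classes.

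The peaks with the highest and the lowest GC content are shown as 240-base stretches from the middle of the peak, with each CpG in capitals, plus strand, since CpGs are the feature that sets CpG islands apart.
Nr4a3, chr4:48042899-48043138, 29 CpGs: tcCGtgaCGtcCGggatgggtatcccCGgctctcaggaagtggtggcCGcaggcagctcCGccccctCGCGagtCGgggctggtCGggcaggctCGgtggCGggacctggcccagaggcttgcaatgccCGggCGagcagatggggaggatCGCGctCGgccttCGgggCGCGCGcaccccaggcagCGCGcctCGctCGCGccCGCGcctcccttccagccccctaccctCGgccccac
5730480H06Rik, chr5:48325950-48326189, 3 CpGs: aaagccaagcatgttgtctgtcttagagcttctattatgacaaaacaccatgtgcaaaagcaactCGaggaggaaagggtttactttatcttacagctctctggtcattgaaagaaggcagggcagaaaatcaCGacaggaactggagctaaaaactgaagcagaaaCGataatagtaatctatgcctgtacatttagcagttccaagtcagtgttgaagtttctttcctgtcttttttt
The peak upstream of Nr4a3, an orphan nuclear receptor, was 447 bp wide with 71.8% GC and a CpG ratio of 0.902, lay 1911 bp from a TSS without a peak, and had no other peak within 235589 bp. The next highest were a 363-bp peak near Gm12248 (71.3%) and a 523-bp peak near Zfp956 (71.1%). The lowest were those near 5730480H06Rik (33.0%), Tcp11 (35.4%) and the lincRNA gene Gm48942 (35.7%). The 3 GC-rich peaks were all under 1 kb wide.

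Short elements of ESC transcription factors were counted as exact letters on both strands of the central 1 kb, beside all 2395567 non-overlapping 1-kb tiles of the autosomes. KLF letters (GGGNGTGG) were in 42.7% of TSS-near intergenic peaks and 21.2% of tiles, ESRRB letters (TCAAGGTCA) in 5.52% and 2.18%, and STAT letters (TTCCNGGAA) in 4.07% and 2.59%. The octamer (ATGCAAAT) was in 6.32% of them and 8.36% of tiles, and the SOX core (CATTGT) in 40.2% and 49.1%. Over all 20922 autosomal peaks the shares were 42.3% for KLF, 4.20% for ESRRB, 3.87% for STAT, 5.44% for the octamer and 34.6% for the SOX core, so the order seen against tiles was not that seen against all peaks. Tiles had a median GC content of 41.7%, below that of the peaks, and the part of base composition in these differences was not tested. The SOX core followed by 1 base and the octamer, the joint site of SOX2 and OCT4, was in 0 of 1377 windows, which allows a share of up to 0.218% by the limit of 3 counts and 0.278% by the Wilson interval, and in 2 of all 20922. A shortened form with the first 5 letters of the octamer was added after the data were seen. It was in 2 of the 1377 windows, 1 of 2578 at 10 to 50 kb, 3 of 1323 beyond 50 kb and 15 of all 20922. The 2 matches lay inside the peak near the lincRNA gene Gm5533 and just outside the 400-bp peak near Btrc, a ubiquitin ligase subunit that binds β-catenin.

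Letters of promoter factors were in few of them, with ETS (CCGGAAGT) in 2.61%, NRF1 (GCGCATGCG) in 1.02% and YY1 (AAGATGGCG) in 1.23%, against 0.633%, 0.156% and 0.885% of tiles and 5.16%, 1.91% and 2.42% of all peaks. Against peaks beyond 50 kb, ETS was higher by 1.33 points (0.28 to 2.42), NRF1 by 0.87 points (0.29 to 1.56) and KLF by 9.07 points (5.40 to 12.7). The SOX core was lower there (difference -11.4 points, from -15.1 to -7.64), and so was the octamer (difference -3.36 points, from -5.43 to -1.31). CTCF letters (CCANNAGGG), part of the site of the insulator protein, were in 21.2% of them and 11.4% of tiles. They were in 18.2% of peaks at 10 to 50 kb, 18.2% beyond 50 kb and 18.2% of all peaks. The CTCF difference from 10 to 50 kb was 2.97 points (0.39 to 5.64), and it was the only one of the 14 elements whose interval left out 0 there. The 14 intervals were not adjusted for their number. From peaks beyond 50 kb the CTCF difference was 2.99 points (-0.015 to 5.98). The E-box (CACGTG), which MYC binds, was in 17.0% of them, 9.62% of tiles and 17.6% of all peaks. Its difference from peaks beyond 50 kb was 3.16 points (0.43 to 5.88). For TSS-near intergenic peaks, tiles and all peaks in this order, AP-1 letters (TGANTCA) were in 28.0%, 26.7% and 23.6%. TEAD letters (ACATTCC) were in 16.6%, 13.1% and 13.3%, and GATA letters (AGATAAG) in 11.5%, 14.1% and 9.96%. The 10 of 24 peaks beside listed genes with KLF letters (41.7%) were close to the share of all TSS-near intergenic peaks. Of the same 24, 1 held the octamer, and ESRRB and STAT letters were in 0.

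**Figure D5:**
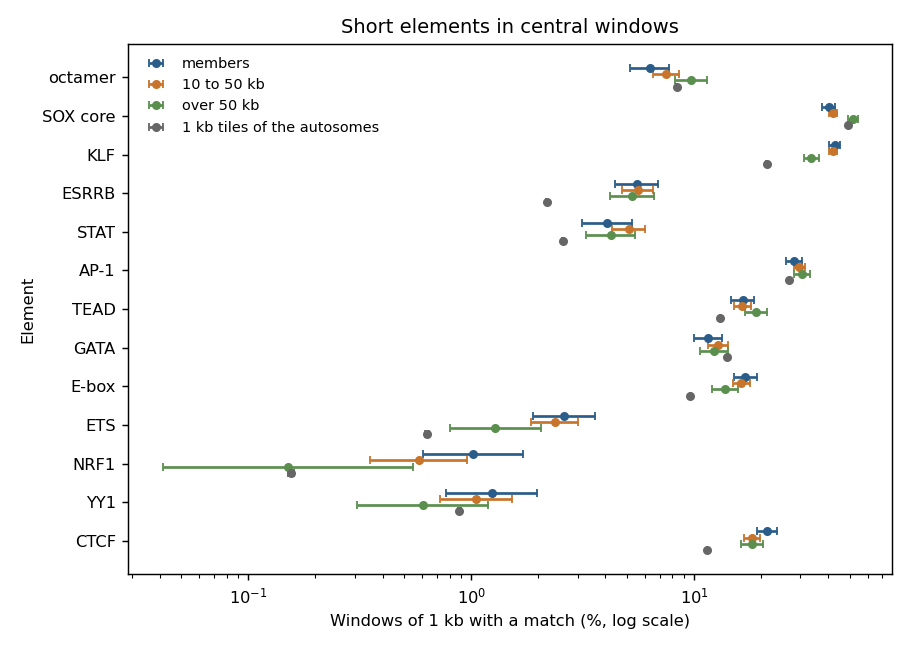
Percentage of central 1-kb windows that hold each element (x axis, log scale) for TSS-near intergenic peaks ("members"), peaks at 10 to 50 kb, peaks over 50 kb and 1-kb tiles of the autosomes, with 95% Wilson intervals. The first 2 classes overlap for most elements, KLF and ESRRB lie to the right of the tiles in every class of peaks, and the octamer and SOX core of the first 2 classes do not.

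Although the rule leaves out protein-coding and lincRNA genes, 184 of 1377 TSS-near intergenic peaks (13.4%, 11.7 to 15.3) overlapped a gene of another kind. This was 3.08 points (0.99 to 5.29) above the share at 10 to 50 kb (10.3%) and above the 9.45% beyond 50 kb. Over all autosomal peaks under 10000 bp, most of which lie in genes, it was 12.2%. Antisense genes accounted for 64 (4.65%), beside 2.95% at 10 to 50 kb and 1.89% beyond 50 kb. Processed transcripts accounted for 40, a share above the 2.33% and 1.81% of the farther classes. Processed pseudogenes accounted for 25 (1.82%), a share below the 1.94% and 2.34% there. A TSS of another biotype lay inside 98 peaks (7.12%), beside 5.78% and 4.76%. No interval was computed for these differences. Of the 184, a CpG ratio above 0.6 was found in 9.78%, against 2.68% of the 1193 over no such gene.

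Annotated microRNA genes lay in 7 of the peaks (0.51%), beside 8 at 10 to 50 kb (0.31%) and 2 beyond 50 kb (0.15%). Of the 7 TSS-near intergenic peaks, 4 held named microRNAs with mature sequences in RefSeq. MicroRNAs pair with target mRNAs mainly through their seed, bases 2 to 8, which is in capitals.
mmu-miR-200c-3p: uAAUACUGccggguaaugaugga
mmu-miR-141-3p: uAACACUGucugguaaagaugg
mmu-miR-193a-3p: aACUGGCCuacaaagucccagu
mmu-miR-298-5p: gGCAGAGGagggcuguucuuccc
mmu-miR-7671-3p: aAGCGGGCaggcggagaaccac
miR-200c and miR-141, of a family known for keeping epithelial cells epithelial, are encoded side by side in 1 peak of 2728 bp (chr6:124717302-124720029) that lies 1813 bp downstream of the nearest Ptpn6 TSS, which had no peak. miR-193a lies in a peak of 1495 bp with 66.4% GC and a CpG ratio of 0.812, near the lincRNA gene Gm11205. miR-298 lies in a peak of 8344 bp near Gnas, an imprinted locus, and miR-7671 in one of 6894 bp upstream of Irf1, an interferon-response factor. ChIP-seq of a histone mark does not show which of the overlapping genes was transcribed.

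The widest TSS-near intergenic peaks reached the limit of the rule. After those of Enah (9948 bp at 6522 bp upstream), Dhx37 (9911 bp at 5208 bp downstream) and Lifr came Zfp518b (9832 bp at 8595 bp upstream) and Jarid2. All but Dhx37 had a marked TSS. Nearest to the largest number of peaks, with 3 each, were Csnk1e, a kinase of the circadian clock and of Wnt signalling, the sialyltransferase gene St6galnac2 and the lincRNA gene Gm27204. Of these 9 peaks, only the 2 upstream of Csnk1e lay next to a marked TSS. The peaks of Gm27204 were 4345, 1111 and 7857 bp wide and those of St6galnac2 1881, 1955 and 3637 bp.

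The narrowest were shorter than the DNA around a nucleosome, the unit that carries the mark, and 3 are printed whole, plus strand, with each CpG in capitals.
Nr1d1, chr11:98783182-98783243, 62 bp: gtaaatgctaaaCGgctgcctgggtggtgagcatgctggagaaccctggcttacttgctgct
Zkscan17, chr11:59532996-59533058, 63 bp: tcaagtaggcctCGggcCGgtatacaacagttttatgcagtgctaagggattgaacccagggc
Prl, chr13:27052346-27052428, 83 bp: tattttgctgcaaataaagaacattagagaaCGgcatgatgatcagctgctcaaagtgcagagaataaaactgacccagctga
Nr1d1 encodes the clock repressor REV-ERBα and its TSS had a peak, whereas the TSSs of Zkscan17 and of Prl, the pituitary hormone prolactin, had none. The next in width were 143 bp near Hepacam and 144 bp near Arhgap27. The nearest other peak to that of Prl was 936918 bp away. How an interval so narrow arose from the caller and the later filters cannot be read from the list.

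TSS-near intergenic peaks were found on all 19 autosomes. They made up between 4.92% of the peaks of chromosome 14 and 7.95% of those of chromosome 13. For 1000 genes there were 32.6 on chromosome 14 and 88.0 on chromosome 16. The share with a marked TSS was also lowest on chromosome 14, at 31.6% of 38 peaks, and highest on chromosome 4, at 59.8% of 92.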

How the data were processed

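H3K27ac ChIP-seq was done in control, NVP-2-treated and ActD-treated mESCs, 2 samples each. The deposited file holds peak positions in bp (mm10) that the authors made from both control replicates: per the labels and methods, reads were trimmed (Cutadapt), aligned with BWA to mouse and human genomes together, cleared of duplicates (Picard 2.9.1) and poorly mapped reads (SAMtools 1.4), and peaks were called (LanceOtron), merged within 2 kb and filtered by height and ATAC-seq summits. It holds no counts, so depth cannot be read from it, and the read totals of the study's reporting summary were not used here.

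Peaks were placed by GENCODE M21 (GRCm38; the study names another release of this build), with an overlap of at least 1 bp. Upstream was read from the strand of the nearest TSS. Intergenic bases were assigned by the same distances. GC content, CpG ratio, soft-masked bases and letters came from the NCBI GRCm38 sequence, microRNAs from RefSeq on GRCm38. Shares have 95% Wilson intervals, differences Newcombe intervals and medians order-statistic intervals; no p-value was computed. The 1377 regions, gene lists and letters were chosen with earlier results of these data known. Named are regions nearest to listed genes, genes with most regions, the 5 widest and narrowest, the 3 highest and lowest in GC, those over microRNAs and those at the limits; sequences, RefSeq overlaps and the shortened element were chosen after the values were seen. The functions were tested on simulated data. Python 3.11.15, numpy 2.4.6, pandas 2.3.3 and scipy 1.17.1 were used.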

Additional observations from a re-analysis of the deposited data

How the results depend on the processing

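The 11 results were recomputed under 74 combinations with 11 alternatives. Of the 74, 57 stayed within the interval of the main value (for the number of peaks, within 1.5 times). Some of the 57 could hardly have moved. A share of 0 for the joint SOX2 and OCT4 site stays 0 in any subset of the peaks. The interval of the pluripotency share is wide and took in every alternative. No difference whose interval left out 0 changed sign. With the TSS of the longest isoform the share upstream became 82.0%, the marked share 53.0%, its difference from 10 to 50 kb -4.97 points and that from beyond 50 kb 11.3 points. With protein-coding genes alone the marked share became 56.0%, its difference from beyond 50 kb 9.81 points and the share over genes of another biotype 15.5%. With genes of every biotype the share upstream was 63.2%, the marked share 34.1% and the median GC content 47.5%. With distances from the midpoint the median width was 1808 bp, the marked share 45.3% and its difference from 10 to 50 kb -4.37 points. Peaks at least 1 kb wide had a median width of 2248.5 bp, as the limit itself sets, and a median GC content of 47.6%. Starting at 2 kb gave a marked share of 51.3% and a difference from 10 to 50 kb of 2.26 points, and a window of 2 kb around the TSS one of 51.3%. With protein-coding genes alone the difference in median GC content from 10 to 50 kb was 0.26 points, with 0 inside its interval. The cause of the other shifts was not tested. No paired analysis was possible because a single list, made from both control replicates together, was used, and for the same reason no replicate could be left out.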

Other observations

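The 38 TSS-near intergenic peaks with a CpG ratio above 0.6 and a GC content above 50% (2.76% of 1377) were chosen as a subset after their values were seen and are given as a description. The same limits were met by 2.21% of peaks at 10 to 50 kb, 1.89% beyond 50 kb and 21.8% of all autosomal peaks under 10000 bp. The intervals of the differences from both farther classes included 0. The values that follow are those of the 38. Their median width was 1001.5 bp and 19 of them were under 1 kb. Their nearest genes were of many kinds, from the transcription factor gene Sox4 to Gclc, which encodes a subunit of the enzyme that starts glutathione synthesis. The highest ratio, 0.907, was in a 507-bp peak 2671 bp upstream of Mos, the kinase that arrests oocytes. Of the 38, 13 (34.2%) overlapped a gene of another biotype and 21 (55.3%) a gene of RefSeq, while 3 contained a RefSeq start.

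By RefSeq, 340 of all 1377 TSS-near intergenic peaks (24.7%) overlapped an annotated gene and 60 (4.36%) contained a gene start. The shares were 24.7% and 5.16% at 10 to 50 kb and 20.4% and 3.63% beyond 50 kb. The difference in gene overlap from the class beyond 50 kb was 4.28 points (1.13 to 7.42). TSS-near intergenic peaks are intergenic by the annotation used and not by every annotation of the same genome.

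The deposited list is not sorted by position, and what orders it is not given in the sources used here. TSS-near intergenic peaks had a median line of 14687, close to the 14488.5 and 14896 of the farther intergenic classes and later than the 12242.5 of all autosomal peaks under 10000 bp.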
